A study of Rattus norvegicus with 4 samples.

Results

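The genes described here encode the sodium pump and the transporters that carry ions, bicarbonate, phosphate, sulfate and metals across cell membranes. Members were taken by symbol: Atp1a and Atp1b genes and genes of the families Slc4a, Slc8a, Slc9a, Slc12a, Slc20a, Slc24a, Slc26a, Slc30a and Slc39a, with 3 symbols left out. This gave 65 of the 14485 gene names with values. RNA sequencing compared whole eye tissue with retina. The rats were wild type, of the pigmented Long Evans strain, and each library held pooled RNA from 5 of them. The labels name no age or treatment. The labels list 2 technical replicates for each tissue, but 1 column of values was analysed per tissue, so no difference has a replicate check and no p-value is given.

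The values are taken as RPKM (reads divided by gene length and library size), which was inferred from the values. The totals behind them were 28071917 reads for eye and 51944762 for retina. Whole reads could be recovered for all 65 members, as the smallest numbers that fit. The true reads of a gene may be a multiple of those given here. By recovered reads, 27 members had under 300 in the library with fewer. Intervals given below are exact 95% Clopper-Pearson intervals of the ratio of recovered reads. They cover counting error only and compare the libraries, not the tissues. The tissue label and title call the libraries eye and retina, while retina mRNA is named in the description field of all 4.

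The sodium pump, a catalytic alpha and a glycosylated beta subunit, exports sodium and imports potassium at the cost of ATP. The gradients it builds drive most of the transporters described here. In photoreceptors the pump of the inner segment returns the sodium that enters through the light-regulated channels of the outer segment. In cornea, ciliary epithelium and pigment epithelium, bicarbonate and chloride transporters move fluid, and in neurons the chloride transporters set whether GABA excites or inhibits. Zinc is carried out of the cytosol by most Slc30a proteins and into it by Slc39a proteins.

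More members had their greater value in retina than in eye, by a margin that depended on how the libraries were scaled. Called members were found on both sides. The zinc importer gene Slc39a4 and the corneal transporter gene Slc4a11 were higher in eye. The chloride extruder gene Slc12a5 and the anion exchanger gene Slc4a3 were lower. Of the 65 members, 60 reached 1 in at least 1 library and were compared on log2((eye + 0.1) / (retina + 0.1)). Genes differing by 2-fold or more were called. On this scale 10 members were called higher in the eye library, beside a background of 17.8% of all 13259 genes compared, and 9 were called lower, against 7.95%. The remaining 41 were not called. At a fold of 4, 2 members were higher (background 9.07%) and 0 lower (background 0.0905%). The median log2 fold was -0.22 for the members and -0.01 for all genes. The eye value was the greater for 24 members and the retina value for 36, beside 6540 and 6717 of all 13259 genes compared.

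The interval of the fold lay above 1 for 19 members, below 1 for 33, and included 1 for 8. It lay wholly past a fold of 2 for 8 of the 10 higher members and for 5 of the 9 lower ones. The values depend on how the libraries are scaled against each other. Leaving lens genes out of the totals raised every log2 ratio of eye to retina by 0.19, before 0.1 was added. This took out the recovered reads of the 13 lens genes with values, of 19 listed. Recovered reads are minimal, so this shift may be too small. Giving both libraries the same summed value lowered every log2 ratio by 0.64, also before 0.1 was added. Of 19 called members, 7 were called in the same direction under 3 other scalings. Those were Slc4a11, Slc39a4 and Slc39a8, higher in eye, and Slc4a3, Slc9a5, Slc12a5 and Slc30a10, lower in eye. Without lens genes, Slc4a3 and Slc9a5 lay next to the threshold, at log2 folds of -1.02 and -1.03, and a larger shift would lose both calls. Another 15 members, none of them called, changed sign under at least 1 of the scalings. Among them were Atp1b1, Slc4a2, Slc12a7, Slc26a11, Slc30a4, Slc30a5, Slc30a6, Slc30a7, Slc30a9, Slc39a6, Slc39a7, Slc39a10 and Slc39a11.

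**Figure D1:**
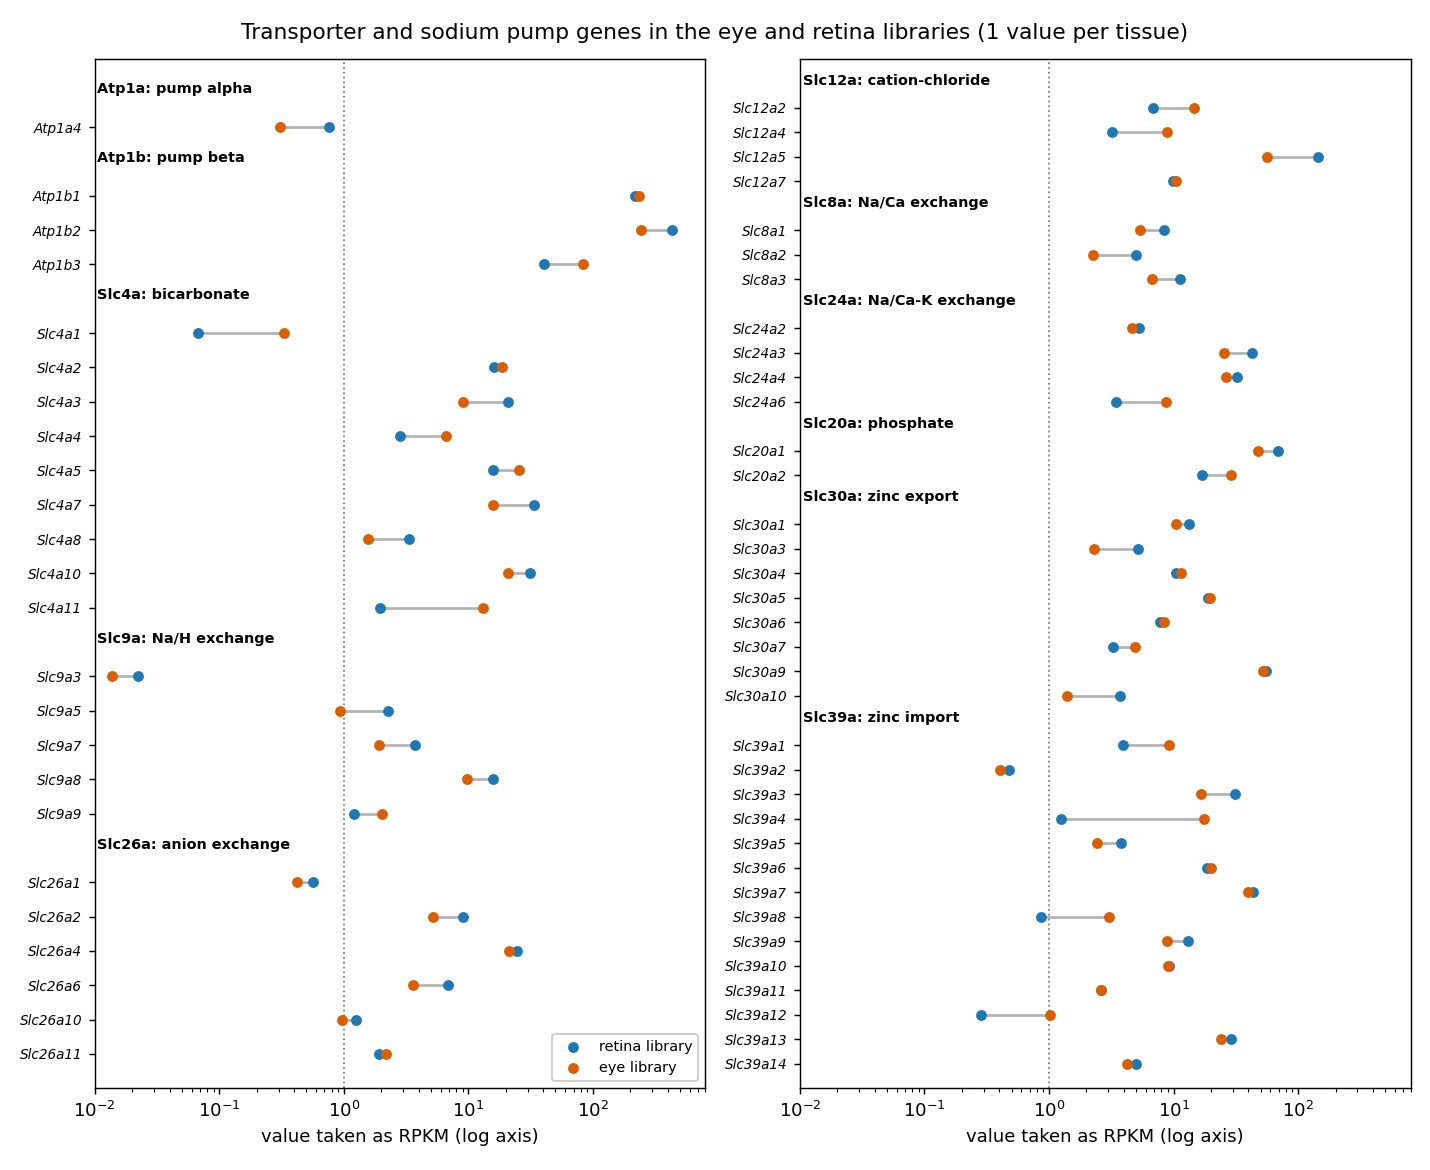
Values of 59 members in the eye library (orange) and the retina library (blue), by gene family, on a log axis of values taken as RPKM, with 1 point per library and no replicates. Atp1b2 in retina lies farthest to the right, at 435, and the widest gap is that of Slc39a4, at 17.7 in eye and 1.26 in retina.

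Library composition was checked with marker genes. All 13 lens markers, 5 of 5 corneal epithelium, 5 of 5 corneal stroma and 7 of 7 skeletal muscle markers had eye values 16.7 or more times those in retina. Summed values were 181822 in eye and 1894 in retina for lens, 4473 and 5.95 for corneal epithelium, and 3101 and 12.4 for muscle. Those for corneal stroma were 2014 and 7.40. None of these markers was at 0 in either library. Ratios of eye to retina ran from 0.480 to 1.23 over 7 rod markers, with a median of 0.553 and summed values of 9121 and 16043. Of the 60 members compared, 37 lay inside that range, 14 above it and 9 below it. The highest member ratio, 14.0, was below the lowest lens, corneal and muscle marker. Other marker lists had ranges that held members. Ratios of 6 pigment epithelium markers ran from 0.981 to 8.18, with 24 members inside, and summed values of all 7 were 1312 and 351. Those of 5 ciliary body and outflow markers ran from 1.12 to 49.96 (16 members inside, summed values 1244 and 141), and those of 5 endothelium markers from 1.13 to 12.6 (14 inside, 91.2 and 42.1). Myelin markers ran from 3.03 to 261 (4 inside, 314 and 28.8) and melanin markers from 9.81 to 15.4 (1 inside, 953 and 84.1). On the retinal side, cone markers ran from 0.313 to 0.954 (35 inside, 202 and 474), ganglion cell markers from 0.434 to 0.632 (15 inside, 253 and 445) and Mueller glia markers from 0.529 to 0.913 (23 inside, 646 and 801). Erythrocyte markers, from 5.88 to 6.35, held 0 members. The lists overlap in range, so a member can lie inside several. The part of these other tissues in the members' values was not tested, and fewer cells of a type cannot be told apart here from less RNA per cell.

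**Figure D2:**
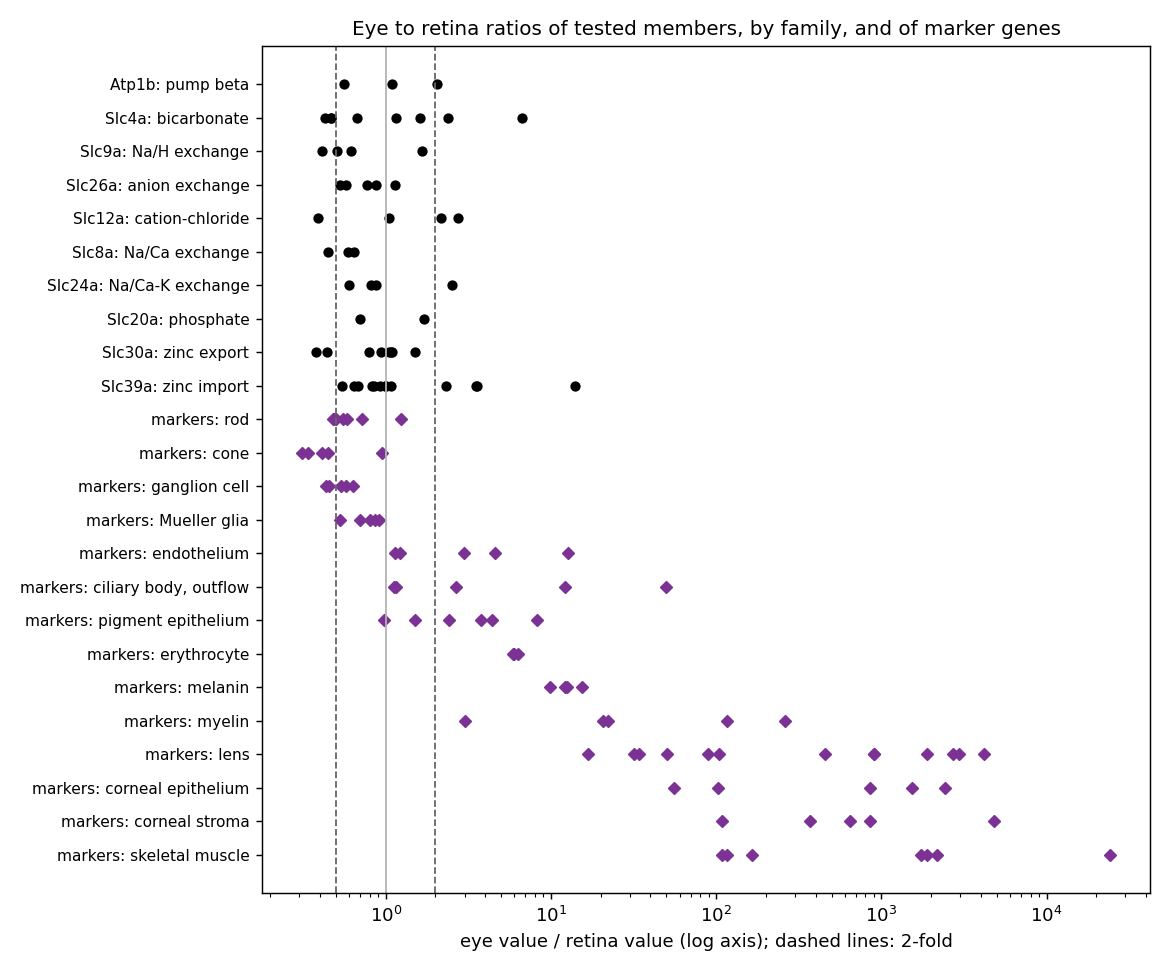
Ratios of the eye value to the retina value on a log axis, 1 black point for each of 54 members compared, by family, and 1 purple diamond for each marker gene. Members spread from 0.379 to 14.0, whereas lens, corneal and muscle markers all lie at 16.7 or higher.

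Upstream sequences are shown for 3 pairs of members, each a gene called higher in eye beside a gene with its greater value in retina. The pairs are 2 beta subunits, 2 Slc12a carriers, and a zinc importer with a zinc exporter, and they were chosen after the values were seen. Upstream windows on the rat assembly GRCr8 were found by symbol for 46 of the 65 members, among them 7 of the higher and 6 of the lower members. The RefSeq gene table, used below for names and overlaps, held all 65 by symbol or synonym. Each sequence is the 250 bases before the annotated start, read 5′ to 3′ on the gene's strand. Atp1b3 (higher in eye) is at chr8:105821152-105821401, minus strand, and Atp1b2 at chr10:54823709-54823958, minus strand. Slc12a2 (higher) is at chr18:53546083-53546332, plus strand, and Slc12a5 (lower) at chr3:174115583-174115832, plus strand. Slc39a1 (higher) is at chr2:178000869-178001118, plus strand, and Slc30a3 (lower) at chr6:30997164-30997413, plus strand. Capitals mark the core of the metal response element bound by the zinc sensor Mtf1, TGCACNC or TGCGCNC, on either strand.
Atp1b3: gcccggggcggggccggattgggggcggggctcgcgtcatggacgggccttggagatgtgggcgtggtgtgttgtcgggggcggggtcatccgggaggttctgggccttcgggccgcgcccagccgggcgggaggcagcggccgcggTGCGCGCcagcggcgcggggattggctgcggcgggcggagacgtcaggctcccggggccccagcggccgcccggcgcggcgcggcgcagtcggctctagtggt
Atp1b2: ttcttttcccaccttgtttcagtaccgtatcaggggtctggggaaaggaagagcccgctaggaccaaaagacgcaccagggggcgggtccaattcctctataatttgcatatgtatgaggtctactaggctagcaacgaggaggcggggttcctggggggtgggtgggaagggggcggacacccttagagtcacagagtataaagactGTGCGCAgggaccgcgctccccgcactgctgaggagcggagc
Slc12a2: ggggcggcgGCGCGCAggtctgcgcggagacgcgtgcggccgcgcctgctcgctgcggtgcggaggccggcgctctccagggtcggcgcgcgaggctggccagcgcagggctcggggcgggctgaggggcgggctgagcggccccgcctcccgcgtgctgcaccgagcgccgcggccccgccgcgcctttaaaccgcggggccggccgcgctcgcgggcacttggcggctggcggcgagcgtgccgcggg
Slc12a5: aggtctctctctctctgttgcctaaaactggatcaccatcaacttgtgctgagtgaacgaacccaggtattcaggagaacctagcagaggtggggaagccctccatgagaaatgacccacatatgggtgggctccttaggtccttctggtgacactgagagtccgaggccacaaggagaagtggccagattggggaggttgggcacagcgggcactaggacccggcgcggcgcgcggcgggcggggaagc
Slc39a1: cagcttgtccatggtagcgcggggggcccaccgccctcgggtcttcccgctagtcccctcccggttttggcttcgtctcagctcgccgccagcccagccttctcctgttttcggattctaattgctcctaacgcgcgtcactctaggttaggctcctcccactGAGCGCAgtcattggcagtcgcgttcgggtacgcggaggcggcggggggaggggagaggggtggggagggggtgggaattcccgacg
Slc30a3: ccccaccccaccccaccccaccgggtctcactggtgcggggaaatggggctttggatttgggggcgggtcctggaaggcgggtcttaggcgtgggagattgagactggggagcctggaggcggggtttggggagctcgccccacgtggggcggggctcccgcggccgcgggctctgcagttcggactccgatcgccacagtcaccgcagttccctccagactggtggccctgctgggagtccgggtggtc

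The metal response core stood in 5 of the 7 windows of higher members (Atp1b3, Slc12a2, Slc12a4, Slc39a1 and Slc4a4) and in 0 of the 6 of lower members. It stood in 12 of 29 windows of members not called, Slc30a1 among them, and in 20.6% of all 33469 windows. With equal summed values, none of the 5 higher members with the core was called. The GC box GGGCGG, on either strand, stood in 4 of the 7, 3 of the 6 and 18 of the 29 windows, and in 30.5% of all. The letters TAATCC are bound by the photoreceptor factor Crx and by Otx proteins. They stood in 1 of the 7 (Slc39a12), 0 of the 6 and 4 of the 29, and in 6.34% of all. The median GC content was 74.8% in windows of higher members, 66.0% in those of lower members and 64.4% in those of members not called. In all windows it was 51.2%. These matches describe the letters only. Overlap of 1 motif with another was not counted, and binding was not measured.

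**Figure D3:**
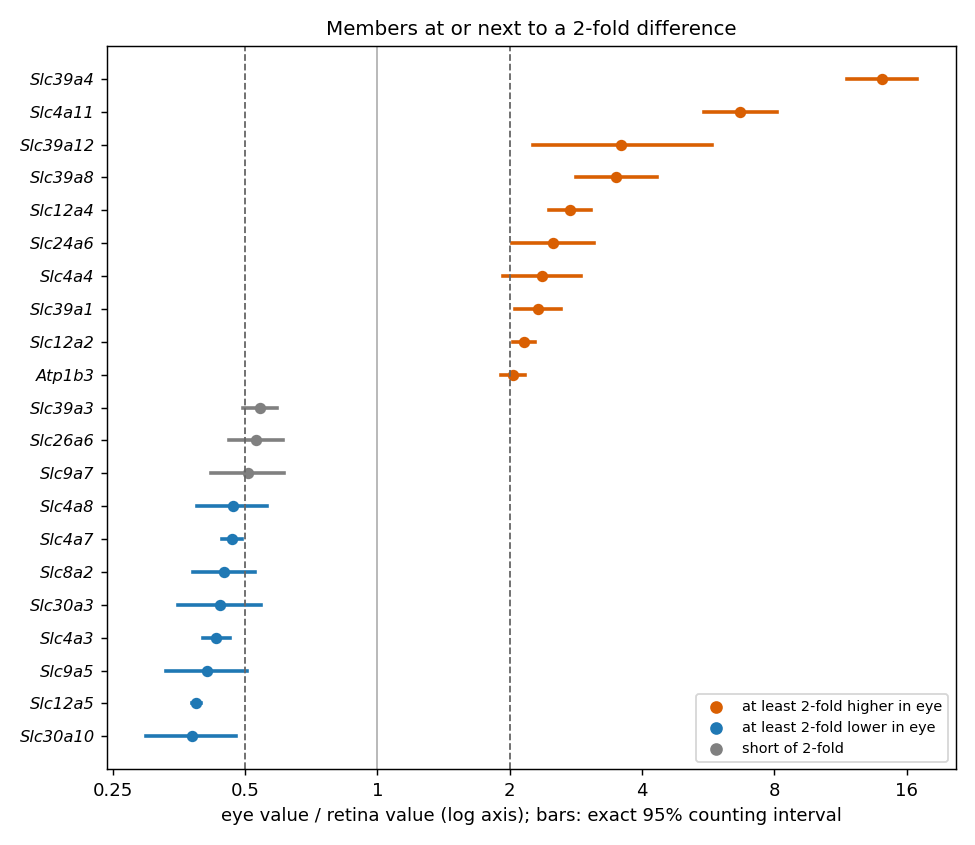
Ratio of the eye value to the retina value (log axis) for 18 called members and 3 members just short of a 2-fold difference, with exact 95% counting intervals as bars and dashed lines at 2-fold. The bar of Slc39a4 (11.7 to 16.9) lies apart from all others and that of Slc4a11 (5.55 to 8.11) just meets that of Slc39a12, while, among called members, those of Atp1b3, Slc4a4, Slc4a8, Slc8a2, Slc9a5 and Slc30a3 cross a dashed line.

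The alpha subunit gene Atp1a4, known from sperm, had values of 0.305 in eye and 0.758 in retina, below the minimum, with 27 and 124 reads. Reads that fit several closely related pump genes may have been split between them in a way that was not stated.

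The beta subunits carry the pump to the membrane, and 1 of the 3 was called, as higher in eye (background 17.8%). Atp1b2, also known as an adhesion molecule of glia, was the most abundant member of both libraries, at 242 in eye and 435 in retina. Its ratio of eye to retina, 0.556 (interval 0.548 to 0.565), was short of a call, though Atp1b2 was called lower with equal summed values. Atp1b1, the widespread form, was at 236 and 217. Atp1b3 was at 83.3 in eye against 40.8 in retina, 2.04-fold higher in eye (interval 1.92 to 2.17), from 2125 and 1928 reads, and it was not called with equal summed values.

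Shares within a family do not depend on the scaling between the libraries. In eye the Atp1b1 and Atp1b2 values lay side by side (42.1% and 43.1% of the summed beta value), and Atp1b3 held 14.8%. In retina Atp1b2 held 62.7%, Atp1b1 31.4% and Atp1b3 5.90%. The ratio of Atp1b2 to Atp1b1 was 1.95-fold greater in retina (interval 1.90 to 2.01). Intervals of such ratios of ratios are normal approximations on the log scale from the recovered reads.

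**Figure D4:**
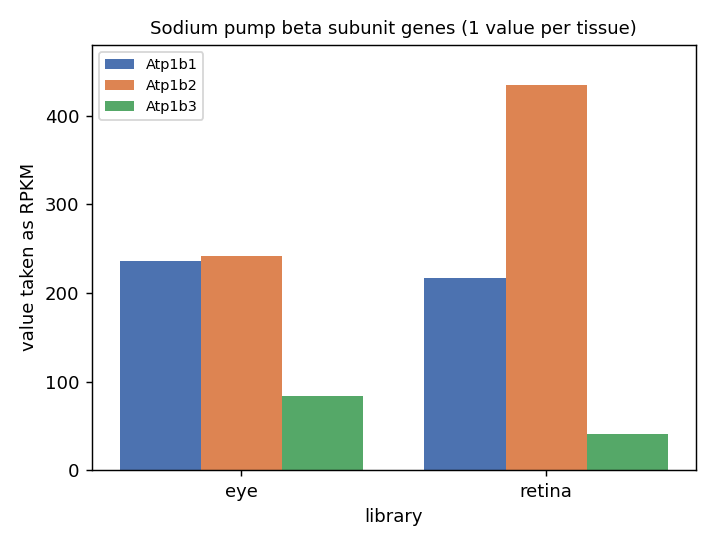
Values, taken as RPKM, of the 3 beta subunit genes of the sodium pump in each library, as bars from 0 with no replicates. Atp1b2 stands above the other bars in retina (435), while in eye Atp1b1 (236) and Atp1b2 (242) lie close together and Atp1b3 is at 83.3.

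Of 10 genes listed as partners or relatives of the pump that had values, 4 were higher in eye and 2 lower (backgrounds 17.8% and 7.95%). Fxyd genes encode small membrane proteins that tune the pump. Fxyd1 was at 94.0 in eye against 31.8 in retina, 2.95-fold higher. Fxyd3 was at 63.1 and 8.37, 7.54-fold higher, and Fxyd5 at 12.4 and 2.76, 4.49-fold higher. Fxyd2, best known from kidney, was at 4.97 and 0.224, from 24 and 2 reads, a ratio of 22.2 (interval 5.51 to 194). Fxyd7, a brain form, was at 11.5 and 24.6, 2.15-fold lower in eye. The other lower gene was Atp4a, the catalytic subunit of the gastric proton pump, a relative rather than a partner. It was at 0.447 and 1.22, from 39 and 197 reads.

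Slc4a genes, most of which move bicarbonate, spread widest of the families that act on pH. Of 8 compared members, 2 were higher in eye and 3 lower (backgrounds 17.8% and 7.95%). Slc4a11, a transporter of corneal endothelium, was at 13.1 in eye against 1.95 in retina, 6.69-fold higher in eye (interval 5.55 to 8.11), from 517 and 143 reads. Slc4a4, the electrogenic sodium bicarbonate cotransporter, was at 6.67 and 2.81, 2.37-fold higher (1.94 to 2.91), and not called with equal summed values. Slc4a4 had 223 and 174 recovered reads.

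The Slc4a genes lower in eye were Slc4a3, Slc4a7 and Slc4a8. Slc4a3, a chloride/bicarbonate exchanger of excitable cells, was at 9.05 in eye against 21.0 in retina, 2.32-fold lower (interval 2.17 to 2.49). Slc4a7, an electroneutral sodium bicarbonate cotransporter, was at 15.7 and 33.6, 2.14-fold lower (2.03 to 2.26). Slc4a8, a sodium-driven chloride/bicarbonate exchanger, was at 1.57 and 3.34, 2.13-fold lower (1.78 to 2.57). Slc4a7 and Slc4a8 lost the call when the totals held no lens genes, and Slc4a8 also lost it with the median of ratios.

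The other Slc4a members were not called. Slc4a5, an electrogenic cotransporter, was at 25.6 in eye against 15.9 in retina, and it was the most abundant Slc4a gene of the eye library. Slc4a10, a sodium-driven transporter of neurons, was at 21.0 and 31.5. Slc4a2, a widespread anion exchanger, was at 18.6 and 16.1. Slc4a1, the anion exchanger of red cells, was below the minimum at 0.331 and 0.0672, from 8 and 3 reads. The erythrocyte marker Hba-a2 was at 295 and 46.5.

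Ratios between bicarbonate carriers within a library do not depend on scaling, and they differed. The ratio of Slc4a7 to Slc4a4 was 11.9 in retina and 2.35 in eye, 5.07-fold greater in retina (interval 4.13 to 6.23). That of Slc4a3 to Slc4a2 was 1.30 and 0.486, 2.68-fold greater (2.46 to 2.93). That of Slc4a10 to Slc4a5 was 1.98 and 0.820, 2.41-fold greater (2.24 to 2.59). These pairs were chosen after their values were seen.

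Sodium/proton exchangers (Slc9a) remove acid from the cytosol or from organelles. Of 6 compared, 1 was lower in eye (background 7.95%) and 0 higher (background 17.8%). The retina value was the greater for 5 of them, and for 6717 of all 13259 genes compared. Slc9a5, known from brain, was at 0.927 in eye against 2.26 in retina, 2.44-fold lower (interval 1.97 to 3.03), from 108 and 487 reads. Slc9a7, of the Golgi, was at 1.90 and 3.75, a 1.97-fold difference next to the threshold (1.63 to 2.40). Slc9a8, also of the Golgi, was at 9.71 and 15.7. Slc9a9, an endosomal form, had the only greater value in eye among those compared, at 2.01 and 1.22. Slc9a3, of kidney and gut brush border, was at 0.0138 and 0.0224, from 1 and 3 reads.

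Slc26a genes exchange chloride, bicarbonate, sulfate and other anions. Of 5 compared, 0 were called in either direction (backgrounds 17.8% higher and 7.95% lower). Slc26a4 (pendrin), a chloride/iodide/bicarbonate exchanger of inner ear and thyroid, had the highest values of these, 21.3 in eye and 24.5 in retina, from 1709 and 3638 reads. Slc26a2, a sulfate transporter needed by cartilage, was at 5.20 and 9.10. Slc26a6, an epithelial anion exchanger, was at 3.61 and 6.82, a 1.89-fold difference (interval 1.64 to 2.18). Its gene overlaps Celsr3 in the RefSeq table, at 4.81 and 16.8, and whether counting used strand was not stated. Slc26a10 and Slc26a11 lay between 0.963 and 2.18, and Slc26a1, a sulfate transporter, was at 0.420 and 0.568, below the minimum.

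Among 18 partners in pH control that were compared, 6 were higher in eye and 0 lower (backgrounds 17.8% and 7.95%). Carbonic anhydrases supply bicarbonate. Car3, abundant in muscle, was at 44.7 in eye against 0.360 in retina, 124-fold higher. Car12, a membrane form, was 3.40-fold higher at 13.9 and 4.09. Car5b of mitochondria (7.27 and 1.53) and Car4, anchored at the cell surface (1.29 and 0.274), were 4.76-fold and 4.73-fold higher. Car14, a membrane form of Mueller glia and pigment epithelium, was at 166 and 144 and was not called. Ezr (ezrin), which ties membrane proteins to actin, was 3.46-fold higher at 52.7 and 15.3. Chp2, a cofactor of sodium/proton exchangers, was 4.11-fold higher at 2.18 and 0.529. Bsg (basigin), a chaperone of lactate transporters, was at 517 and 659, and its client Slc16a1 at 78.9 and 88.2.

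Slc12a carriers couple chloride to sodium or potassium, and the ratio of Slc12a5 to Slc12a2 differed between the libraries. Of 5 members, 2 were higher in eye and 1 lower (backgrounds 17.8% and 7.95%). Slc12a5, the chloride extruder of neurons, was at 56.5 in eye against 146 in retina, 2.58-fold lower (interval 2.52 to 2.64), from 8725 and 41695 reads. Slc12a2, the sodium-potassium-chloride cotransporter that loads cells with chloride, was at 14.7 and 6.82, 2.16-fold higher (2.04 to 2.28). Slc12a4, a potassium-chloride cotransporter of most cells, was at 8.89 and 3.23, 2.75-fold higher (2.46 to 3.07). Both of the latter were not called with equal summed values.

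Slc12a7, another potassium-chloride cotransporter, had values of 10.4 and 9.99, and its interval included equality. The ratio of Slc12a5 to Slc12a2 was 21.4 in retina and 3.84 in eye, 5.57-fold greater in retina (5.24 to 5.91). This ratio does not depend on scaling, but it covers this pair only, which was chosen after its values were seen. The potassium-chloride cotransporter gene Slc12a4 was, unlike Slc12a5, higher in eye. The upstream windows of Slc12a2 and Slc12a5 printed above had a GC content of 83.2% and 59.2%.

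Of 14 partners in chloride and fluid transport, 2 were higher in eye and 1 lower (backgrounds 17.8% and 7.95%). The water channel Aqp1 was at 157 in eye against 59.3 in retina, 2.65-fold higher. Kcnj13, a potassium channel of pigment epithelium, was at 36.5 and 7.01, 5.20-fold higher. Wnk2, a neuronal member of the chloride-sensing kinases that regulate Slc12a carriers, was at 14.7 and 32.2, 2.19-fold lower. The kinases downstream, Oxsr1 and Stk39, were at 17.1 and 10.8, and at 16.5 and 10.7, neither called. Cab39, their activator, was at 41.4 and 30.3, and the chloride transporter gene Clcn3 at 30.9 and 37.8.

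Calcium is removed from photoreceptors and neurons by exchangers that use the sodium gradient. All 3 sodium/calcium exchangers (Slc8a) had their greater value in retina, as did 6717 of all 13259 genes compared. Of the 3, 1 was called lower in eye (background 7.95%). Slc8a2, the brain form, was at 2.24 in eye against 4.98 in retina, 2.23-fold lower (interval 1.90 to 2.63), but not without lens genes in the totals. Slc8a3 was at 6.74 and 11.4, and Slc8a1, the form of heart, at 5.38 and 8.41. Slc8a3 thus had the highest value of the family in both libraries.

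Of the 4 Slc24a members, a family that mostly carries potassium as well, 1 was higher in eye and 0 lower (backgrounds 17.8% and 7.95%). Slc24a6, named Slc8b1 in the RefSeq table, encodes the sodium/calcium exchanger of mitochondria. It was at 8.68 in eye against 3.46 in retina, 2.51-fold higher (interval 2.02 to 3.11), and was not called with equal summed values. Slc24a3 was at 25.3 and 42.5, Slc24a4 at 26.2 and 32.3, and Slc24a2, of cones and ganglion cells, at 4.65 and 5.33. Slc24a6 thus lay on the other side of equal levels from Slc24a2, Slc24a3, Slc24a4 and the Slc8a genes.

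Among 10 partners in calcium handling, 1 was higher in eye and 2 were lower (backgrounds 17.8% and 7.95%). The higher one was Atp2a3, a calcium pump of the endoplasmic reticulum, at 2.96 and 0.654. The lower ones were Cngb1, a subunit of the rod channel (62.3 and 145, 2.32-fold), and Atp2b3, a plasma membrane calcium pump (3.33 and 6.90, 2.07-fold). Cnga1, the other subunit of that channel, was at 200 and 279 and was not called. Atp2a2, another pump of the endoplasmic reticulum, was at 55.7 and 61.9.

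The phosphate transporters Slc20a1 and Slc20a2, which import phosphate with sodium, were not called. Slc20a1 was at 47.7 in eye against 68.4 in retina, and Slc20a2 at 28.8 and 16.8. Their ratio was 4.06 in retina and 1.65 in eye, 2.46-fold greater in retina (interval 2.29 to 2.63). Of 6 phosphate and sulfate partners compared, 1 was higher in eye on the log2 scale with 0.1 added (background 17.8%). It was Enpp1, which makes pyrophosphate, at 9.52 and 2.04. Ankh, a membrane protein of pyrophosphate export, was at 49.5 and 44.8, Papss1, of sulfate activation, at 35.6 and 29.4, and Slc13a4, a sulfate transporter, at 7.52 and 10.1. Papss2, also of sulfate activation, was at 2.06 and 1.01, a ratio of 2.04 that fell short of a call once 0.1 was added.

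Of 8 members of the zinc exporter family (Slc30a), 0 were higher in eye and 2 lower (backgrounds 17.8% and 7.95%). Slc30a10, a manganese exporter of the cell surface, was at 1.40 in eye against 3.69 in retina, 2.64-fold lower (interval 2.10 to 3.36), from 88 and 430 reads. Slc30a3, which loads zinc into synaptic vesicles, was at 2.29 and 5.21, 2.28-fold lower (1.84 to 2.84), a call lost without lens genes in the totals. Slc30a9, of mitochondria, was the most abundant at 52.0 and 55.5. Slc30a5, of the secretory pathway, was at 19.8 and 19.0, and Slc30a1, the exporter of the plasma membrane, at 10.5 and 13.2. Slc30a4, Slc30a6 and Slc30a7, of vesicles and the secretory pathway, lay between 3.24 and 11.5.

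Among zinc importers (Slc39a) 4 of 13 were higher in eye and 0 lower (backgrounds 17.8% and 7.95%). The difference of this small family from the background was not tested. Slc39a4, the importer by which the gut takes up dietary zinc, was at 17.7 in eye against 1.26 in retina. It was 14.0-fold higher in eye (interval 11.7 to 16.9), from 1039 and 137 reads, the highest ratio of any member. Slc39a8, a zinc and manganese importer, was at 3.03 and 0.865, 3.50-fold higher (2.84 to 4.33). Slc39a12, known from brain, was at 1.02 and 0.285, 3.58-fold higher (2.26 to 5.76), from 58 and 30 reads. Slc39a1, a widespread importer of the cell surface, was at 9.13 and 3.94, 2.32-fold higher (2.06 to 2.62). Slc39a1 and Slc39a12 were not called with equal summed values.

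The remaining importers were not called. Slc39a7, of the endoplasmic reticulum, was the most abundant at 39.8 in eye and 43.3 in retina, and its gene overlaps Rxrb in the RefSeq table. Slc39a13 was at 24.0 and 29.2, and Slc39a3 at 16.8 and 30.9, a 1.84-fold difference (interval 1.69 to 2.02). Slc39a6 was at 19.9 and 18.4, and Slc39a9, of the Golgi, at 8.89 and 13.1. Slc39a10 was at 9.07 and 9.18 and Slc39a11 at 2.61 in both, and the intervals of their ratios included 1. Slc39a5 was at 2.44 and 3.80, Slc39a14, which also carries iron and manganese, at 4.19 and 4.96, and Slc39a2 at 0.402 and 0.478, below the minimum.

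Summed over each family, Slc39a genes were at 159 in eye and 162 in retina and Slc30a genes at 111 and 118. The Slc30a sum includes mitochondrial Slc30a9 and the manganese exporter Slc30a10. Slc39a4 ranked 4 of 14 among the most abundant importers in eye, whereas in retina its value of 1.26 was below that of 10 other importers. Relative to Slc39a7 its value was 15.3-fold greater in eye (interval 12.6 to 18.5). Of 8 zinc partners compared, 2 were higher in eye and 0 lower (backgrounds 17.8% and 7.95%). Both were metallothioneins, which bind zinc: Mt1a at 4.76 and 2.08 and Mt2A at 3.07 and 0.754, 2.29-fold and 4.07-fold higher. Mt3, the brain form, was at 37.4 and 47.9, Mcoln1, a lysosomal channel, at 17.1 and 22.1, and Tmem163, a zinc-binding protein of synaptic vesicles, at 14.3 and 22.5.

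In the RefSeq table the gene spans of 12 members overlap a protein-coding gene, and 1 of these members, Slc39a8, was called. Among the others was Atp1b1 with Nme7. Whether reads of these neighbours entered the members' values was not tested.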

How the data were processed

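RNA pools of 5 rats went into each library, per the labels' protocols. The submitters' processing notes name GSNAP, HTSeq and the rat build rn4. Versions, settings, annotation and strand use were not stated there. The authors deposited 1 normalized value per gene and tissue, taken as RPKM, which the authors made by dividing reads by gene model length and library total, as inferred from the values. Under that reading, reads, length and total came out whole for 13962 of 14485 gene names. Recovered reads are minimal solutions, so intervals are if anything too wide. From 14533 rows, 7 with ND were left out, and for 41 names on several rows the row with more decimals was kept. The planned branch for normalized values was used, without a test. Recovery and calls were tested on simulated data (Python 3.11.15, scipy 1.17.1).

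Members and lists were chosen with earlier results of these data known. Named are the 3 most abundant members of each family, called members and those with a fold between 1.8 and 2.2. Among partner genes, called ones and the 3 most abundant are named. Some genes that these rules took, and the shares within the alpha subunits, are not reported here. Genes named beyond the rule, and pairs of members set against each other as ratios, were chosen after their values were seen. Alternatives were another added value (1 or 0.01), no minimum or one of 5, a fold of 4, 3 other scalings, recovered reads, and leaving out names on several rows.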

Additional observations from a re-analysis of the deposited data

How the results depend on the processing

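No paired analysis was possible because each tissue has 1 column of values, and leaving out a technical replicate was not run for the same reason. The report counts 9 members lower in eye. This became 4 when 1 was added, 5 when the minimum was 5, 0 when a 4-fold difference was asked for, 4 when lens genes left the totals, and 24 when summed values were made equal. The 10 higher members became 2 at 4-fold and 3 when sums were equal. The median log2 fold of the members became -0.030 without lens genes and -0.85 when sums were equal. Of all genes, 1054 were lower and 2366 higher. Lower genes numbered 655 when 1 was added, 12 at 4-fold, 562 without lens genes and 4232 when sums were equal. Higher genes numbered 1471 when the minimum was 5, 1203 at 4-fold and 1519 when sums were equal. The construction of each setting gives its direction: adding more shrinks small values' folds, a higher minimum leaves fewer genes, and a scaling shifts every ratio. When 1 was added, the calls of Slc4a8, Slc8a2, Slc9a5, Slc30a3, Slc30a10 and Slc39a12 were lost. When sums were equal, 15 members not called before were called lower in eye. Among them were Atp1b2, Slc4a10, Slc8a1, Slc8a3, Slc9a7, Slc9a8, Slc20a1, Slc24a3, Slc26a2, Slc26a6, Slc39a3, Slc39a5 and Slc39a9. No call of a member changed with 0.01 added, with recovered reads or without names on several rows, and 0 called members changed sign under any alternative. As shares of recovered reads, Atp1b1 had 40.3% in eye and 27.1% in retina, Atp1b2 53.9% and 70.8%, and Atp1b3 5.86% and 2.10%. Such shares weigh longer gene models more. Recovered reads are minimal for each gene, so those of different genes may not be on 1 scale, and these shares may be off. Depth limits members with few recovered reads, such as Slc4a1 (8 and 3) and Slc9a3 (1 and 3), for which no fold is given.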
